A study of Homo sapiens with 6 samples.

Results

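Amino acid transporter genes were followed in HUDEP-2 cells after knockdown of MEN1. The set was defined by name, as 34 genes of the SLC1, SLC3, SLC6, SLC7, SLC36, SLC38 and SLC43 carrier families, and each of the 34 symbols matched 1 of the 62754 genes in every deposited table. HUDEP-2 is an immortalised human erythroid progenitor line, and the study used RNA-seq of poly(A) RNA in work on how the MLL1 complex, to which the MEN1 product menin belongs, bears on fetal hemoglobin. The 6 libraries are 3 labelled MEN1sh2 (genotype MEN1 knockdown) and 3 labelled Controlsh (genotype WT, a non-targeting hairpin), all in 1 cell line. The first group is called the knockdown below. Both groups carried a lentiviral hairpin, were grown in StemSpan SFEM with EPO (3 units per ml), SCF (50 ng per ml), dexamethasone (1e-06 M) and doxycycline (1 µg per ml), were selected in puromycin (2 µg per ml) for 48 h starting 24 h after infection, and were analysed 72 h after infection. The labels name 1 MEN1 hairpin, so loss of menin and any other effect of that hairpin cannot be told apart. The titles call the replicates biological, but nothing states that they came from separate cultures. The p-values therefore set each group difference against the spread between these libraries only.

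Amino acids cross the plasma membrane and the lysosomal membrane through solute carriers. Some draw on the sodium gradient, some exchange one amino acid for another, and some work as heteromers in which an SLC3 glycoprotein heavy chain brings an SLC7 light chain to the surface. Red cell precursors need amino acids for globin synthesis, glycine as a building block of heme, and cysteine for glutathione, while carriers of the lysosome report amino acid supply to the growth-controlling kinase complex mTORC1.

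Levels are given as TPM (transcript abundance on a fixed total per library), which is corrected for transcript length, is a share of all transcripts in a library and can be compared between genes. Tested were the genes that reached 1 TPM in 3 or more libraries, which held for 23 of the 34, and all 23 reached it in all 6. The remaining 11 were at most 0.517 TPM in any library and were not tested. With an adjusted p under 0.05 in limma, 17 of the 23 differed between the groups, against 53.6% of all 14294 genes tested. In the knockdown 10 carriers were higher (22.1% of all tested genes were) and 7 were lower (31.5% of all tested genes were). An absolute log2 change of 1 or more, where the log2 change is the difference between group means of log2(TPM + 1), was met by 5 carriers, all of them higher, against 11.9% of all tested genes in either direction. The 3 libraries of one group lay wholly above those of the other for 18 of the 23, against 61.8% of all tested genes. The median log2 change of the 23 was 0.07, and it was -0.07 over all genes tested.

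The check of the labels was MEN1 itself (ENSG00000133895), at 6.29, 6.44 and 6.88 TPM across the knockdown and 41.2, 39.6 and 37.1 TPM in the controls. The depth inferred from the tables was 18400000 to 35800000 read pairs per library. Erythroid markers were present in both groups, and 9 of 12 were higher in the knockdown, none lower. For this and the other marker lists, the shares over all tested genes were 22.1% higher and 31.5% lower. GATA1, KLF1 and EPOR did not pass the threshold. The summed level of the 12 was 98009 to 110149 TPM in the knockdown and 56503 to 62599 TPM in the controls. Most of it came from the globin genes HBB (mean 50200 against 30200 TPM), HBA1 (23600 against 12200 TPM) and HBA2 (23200 against 12000 TPM). Of 6 megakaryocyte markers only ITGA2B passed the filter, and it was lower; the list summed to 17 to 21.6 TPM against 31.9 to 36.7 TPM, with PF4 and PPBP at 0 in every library. Myeloid and mast cell markers (8 genes, 3 tested, 2 lower) summed to 423 to 505 TPM against 579 to 752 TPM, nearly all of it from the mast cell tryptase gene TPSAB1 (448 ± 47.4 against 644 ± 90.7 TPM), while MPO and ELANE were at 0.122 TPM or less. Lymphoid markers (5 genes, of which CD3D was tested and higher) summed to 3.21 to 5.55 TPM against 0.316 to 0.993 TPM. The part of these shifts in the results below was not tested. In such bulk samples, fewer cells of a type and less RNA per cell cannot be told apart.

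**Figure D1:**
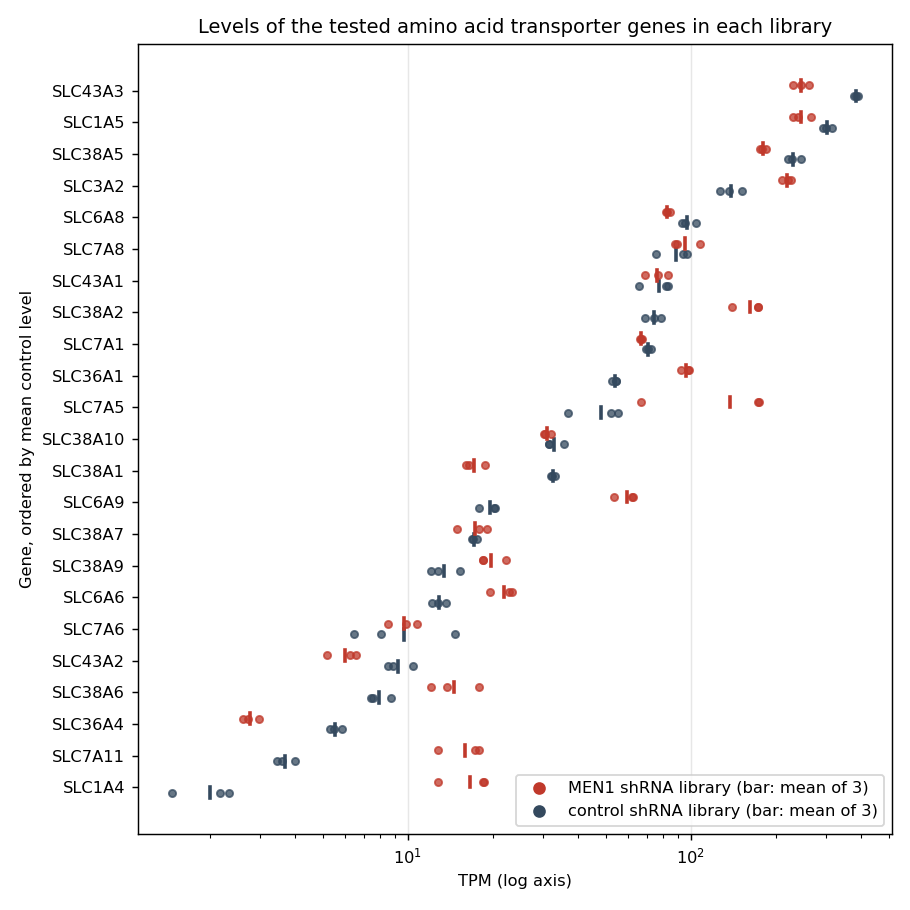
TPM (log axis) of the 23 tested amino acid transporter genes, ordered by their mean level in the control libraries. Each point is 1 library and each vertical bar the mean of 3. SLC43A3, at 376 to 390 TPM, was the most abundant carrier in the controls, and SLC1A4, at 1.47 to 2.34 TPM, the least.

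In the control libraries the carriers spanned a wide range of levels. SLC43A3 (383 ± 6.86 TPM; mean ± SD, n = 3 in each group throughout), SLC1A5 (304 ± 11.3 TPM), SLC38A5 (230 ± 12.6 TPM) and SLC3A2 (138 ± 12.4 TPM) were the most abundant, and no library of a lower-ranked gene among these 4 reached the level of a higher-ranked one. SLC6A8, SLC7A8, SLC43A1, SLC38A2 and SLC7A1 followed at 97.2 to 70.7 TPM on average, and neighbours in that part of the order overlapped between libraries. The 34 genes together summed to 1739, 1698 and 1758 TPM in the controls and to 1769, 1860 and 1878 TPM in knockdown replicates 1, 2 and 3. The total thus differed by 6.02%, while its makeup shifted: the 10 genes that rose went from 373 ± 23.2 to 762 ± 97.5 TPM in sum, and the 7 that fell went from 1062 ± 11.4 to 778 ± 34.8 TPM. These last sums were formed from the genes called and are a description. The total of the 34 includes SLC43A3 (mean 383 TPM in the controls, 245 TPM in the knockdown), known to carry purine nucleobases. It also includes the creatine carrier SLC6A8 (97.2 and 82.7 TPM). Both fell, so the small difference of the total does not describe carriers of amino acids alone.

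Among the SLC1 carriers, SLC1A4 had the largest change of the 23 tested genes. It encodes ASCT1, a sodium-dependent exchanger of alanine, serine, cysteine and threonine (ENSG00000115902, chromosome 2, 64988477 to 65023865, plus strand). It was at 12.8, 18.5 and 18.6 TPM in knockdown replicates 1, 2 and 3 and at 2.34, 1.47 and 2.17 TPM across the controls, in the same order. Every knockdown library lay well above every control, with the lowest of them in replicate 1. The mean rose from 1.99 ± 0.460 to 16.6 ± 3.32 TPM, a ratio of 8.34 (log2 change 2.55 with SE 0.182, adjusted p 4.57e-05). Coverage of the gene was as low as 1.79 reads per base in a control, and the noncoding LINC02245 on the opposite strand overlaps it at a mean of 3.8 TPM in the knockdown and 3.72 TPM in the controls.

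SLC1A5 encodes ASCT2, a sodium-dependent exchanger best known for taking up glutamine (ENSG00000105281, chromosome 19). Its level was 265, 239 and 230 TPM in the knockdown and 316, 294 and 301 TPM in the controls. The groups did not overlap, and the gene fell to 80.7% of the control level (log2 change -0.31 with SE 0.0676, adjusted p 0.00595). The ratio of SLC1A4 to SLC1A5 was 0.0688 ± 0.0179 in the knockdown and 0.00654 ± 0.00133 in the controls, so that SLC1A5 was the far more abundant of the pair in both groups. The glutamate and aspartate carriers SLC1A1, SLC1A2 and SLC1A3 reached at most 0.0139, 0.298 and 0.0114 TPM.

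SLC1A4 and SLC1A5 each hold a match to the amino acid response element, the site bound by ATF4 with C/EBP partners when amino acids are short, in a promoter listed by RefSeq. The letters searched were TGATGNAA, on both strands, from 250 bases before to 50 bases after each start site. The windows are shown because they carry the same motif beside genes that moved in opposite directions. Both are on GRCh38.p14, written 5′ to 3′ along the gene's strand, with the match in capitals; SLC1A4 lies at chr2:64989366-64989425 (plus strand) and SLC1A5 at chr19:46784878-46784937 (minus strand).
SLC1A4: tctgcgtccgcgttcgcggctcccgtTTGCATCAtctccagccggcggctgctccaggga
SLC1A5: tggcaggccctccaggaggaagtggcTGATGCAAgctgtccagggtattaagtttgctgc
RefSeq lists more than 1 promoter for each of these genes, and the match is in 1 of them. Both windows lie within the span of their gene, and which promoter the cells used was not tested.

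The heteromeric carriers came next. SLC3A2 encodes CD98, the heavy chain shared by SLC7A5, SLC7A6, SLC7A7, SLC7A8, SLC7A10 and SLC7A11 (ENSG00000168003, chromosome 11, 62856004 to 62888880, plus strand). It was at 220, 225 and 210 TPM across the knockdown and at 136, 127 and 152 TPM in the controls. The groups were far apart, and the mean rose from 138 ± 12.4 to 218 ± 7.50 TPM (log2 change 0.66 with SE 0.0739, adjusted p 0.000264). SLC3A1, the heavy chain of the cystine carrier of kidney and gut, and its partner SLC7A9 were at most 0.0491 TPM and at 0 in all libraries, respectively.

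SLC7A11, the light chain of the cystine-glutamate exchanger xCT that supplies cysteine for glutathione, rose most among the light chains (ENSG00000151012, chromosome 4, 138164097 to 138242349). Its level was 12.8, 17.3 and 17.8 TPM in the knockdown and 3.59, 3.45 and 3.99 TPM in the controls. All 3 knockdown libraries exceeded the controls by a wide margin, replicate 1 by the least, and the ratio of means was 4.35 (log2 change 1.85 with SE 0.139, adjusted p 5.43e-05).

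SLC7A5 encodes LAT1, the exchanger that brings in leucine and other large neutral amino acids (ENSG00000103257, chromosome 16, 87830023 to 87869507, minus strand). It was at 66.9, 173 and 174 TPM in knockdown replicates 1, 2 and 3 and at 55.4, 36.9 and 52.1 TPM across the controls, in the same order. Knockdown replicate 1 lay just above the highest control, and replicates 2 and 3 far above. The mean rose from 48.1 ± 9.86 to 138 ± 61.5 TPM (log2 change 1.39 with SE 0.359, adjusted p 0.0129). Leaving out knockdown replicate 1 gave a log2 change of 1.85 (adjusted p 0.000242), and without the filter on low genes the adjusted p was 0.0662. The adjusted p over all alternatives ran from 0.000242 to 0.0662. The SLC7A5 pseudogenes SLC7A5P1 and SLC7A5P2 were at most 2.55 and 3.04 TPM.

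The remaining light chains did not pass the threshold or the filter. SLC7A8, which encodes the neutral amino acid exchanger LAT2, was at 108, 87.8 and 89.5 TPM against 97.0, 75.4 and 93.6 TPM in the controls, with overlapping groups (log2 change 0.10 with SE 0.117, adjusted p 0.502). SLC7A6, a light chain that exchanges cationic for neutral amino acids, was at 8.48 to 10.8 TPM against 6.45 to 14.7 TPM (log2 change 0.07 with SE 0.258, adjusted p 0.853), and the sign of its difference changed when single libraries were left out. SLC7A6OS lies across SLC7A6 on the opposite strand at a like level (10.2 against 9.93 TPM). SLC7A7, of the same kind as SLC7A6, was below the filter at 0.252 to 0.262 TPM against 0.401 to 0.517 TPM, and SLC7A10 was listed at 0 throughout.

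**Figure D2:**
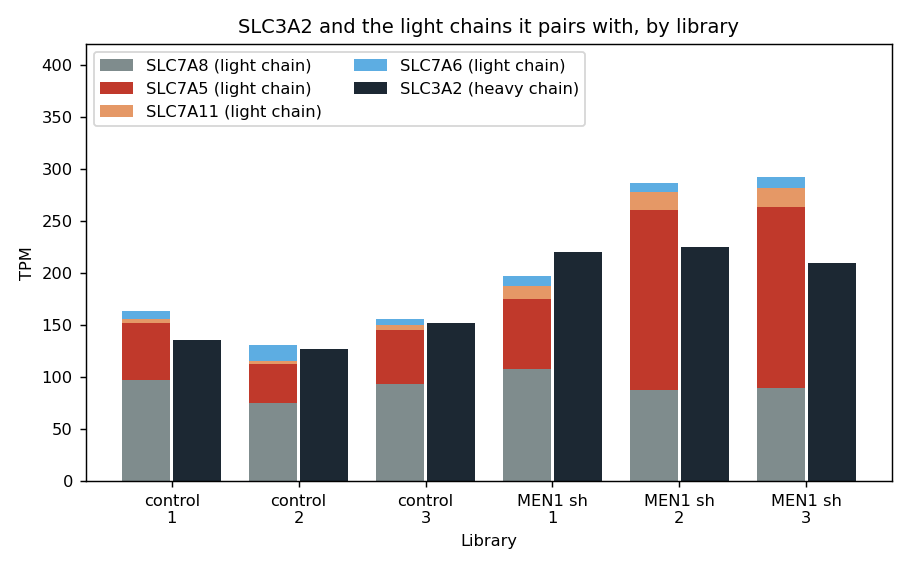
TPM of the SLC3A2 heavy chain (dark bars) and of its light chains SLC7A8, SLC7A5, SLC7A11 and SLC7A6 (stacked bars) in each of the 6 libraries. The stacks reach 131 to 164 TPM in the controls, 197 TPM in MEN1 shRNA replicate 1 and 287 and 292 TPM in replicates 2 and 3, where SLC7A5 is the largest part.

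SLC3A2, SLC7A5 and SLC7A11 thus all rose. The light chains that pair with SLC3A2 summed to 151 ± 17.6 TPM in the controls and to 259 ± 53.1 TPM in the knockdown, or 1.09 ± 0.106 and 1.19 ± 0.259 light chain transcripts per SLC3A2 transcript. The ratio was 0.898, 1.28 and 1.39 in knockdown replicates 1, 2 and 3 and 1.21, 1.03 and 1.03 across the controls, so the groups overlapped. SLC7A8 made up 59.0%, 57.6% and 59.8% of light chain TPM in the controls. In the knockdown SLC7A5 made up 60.3% and 59.5% in replicates 2 and 3, but 33.9% in replicate 1, which was like the 28.2% to 33.7% of the controls. The share of SLC7A11 was 6.04% to 6.50% across the knockdown and 2.18% to 2.63% in the controls. These sums and shares are descriptions with no test.

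The promoters of SLC3A2 and SLC7A5 are shown because both genes rose and their products form 1 carrier. Capitals mark matches to TGATGNAA, to the E-box CACGTG, which MYC and MITF family factors recognise, and to TGACNNNGC, the core of the antioxidant response element bound by NRF2 with small MAF proteins. The SLC3A2 stretch, from 1 of its listed promoters, is chr11:62881636-62881748 (plus strand) and holds the antioxidant core followed by the amino acid response match. The SLC7A5 promoter is chr16:87869458-87869757 (minus strand) and holds the E-box followed by the antioxidant core.
SLC3A2: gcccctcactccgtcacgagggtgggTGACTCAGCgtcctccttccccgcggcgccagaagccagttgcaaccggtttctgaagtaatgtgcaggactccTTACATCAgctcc
SLC7A5: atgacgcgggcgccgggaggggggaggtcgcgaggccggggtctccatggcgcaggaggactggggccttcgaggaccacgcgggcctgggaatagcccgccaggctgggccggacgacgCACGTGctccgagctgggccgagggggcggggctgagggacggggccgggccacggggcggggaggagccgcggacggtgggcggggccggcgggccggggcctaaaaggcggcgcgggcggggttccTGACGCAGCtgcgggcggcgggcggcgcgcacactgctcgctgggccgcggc

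The cationic carriers of the SLC7 family move arginine, lysine and ornithine without a heavy chain. SLC7A1 (CAT-1) was the only one above the filter, at 67.3, 65.9 and 66.5 TPM in the knockdown and 70.3, 69.4 and 72.3 TPM in the controls. The groups did not overlap, but the difference was small and did not pass the threshold (log2 change -0.09 with SE 0.0531, adjusted p 0.214). The median log2 change of all tested genes was -0.07. The difference passed when gene-level coverage replaced TPM (adjusted p 0.0367). It was -0.0312 under median-of-ratios scaling, -0.0194 without globin and mitochondrial genes and -0.0092 with quantile normalization (adjusted p 0.674 to 0.898). SLC7A2 and SLC7A3 reached at most 0.0523 and 0.209 TPM.

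The SLC6 carriers couple uptake to sodium and chloride. SLC6A9 encodes GlyT1, the carrier through which erythroid cells take up glycine for heme (ENSG00000196517, chromosome 1, 43991500 to 44031467). It was at 53.4, 62.7 and 62.0 TPM in the knockdown and 20.2, 17.9 and 20.3 TPM in the controls. The libraries within each group were close together and the groups far apart, with a ratio of 3.05 (log2 change 1.56 with SE 0.0899, adjusted p 2.63e-05). ALAS2, whose enzyme condenses glycine with succinyl-CoA in erythroid cells, rose from 383 ± 39.0 to 780 ± 25.3 TPM (adjusted p 6.1e-05). SLC6A6, the taurine carrier, rose from 12.9 ± 0.720 to 21.8 ± 2.07 TPM (19.5, 22.7 and 23.3 against 12.2, 13.6 and 12.8 TPM; log2 change 0.72 with SE 0.0948, adjusted p 0.000551). SLC6A8, the creatine carrier, was at 84.2, 82.2 and 81.5 TPM against 95.1, 92.7 and 104 TPM (log2 change -0.23 with SE 0.0619, adjusted p 0.0157). That fall passed the threshold with TPM but not under median-of-ratios scaling, without globin and mitochondrial genes or with quantile normalization (adjusted p 0.0623 to 0.0647) or without control replicate 3 (0.0548). The broad-specificity carrier SLC6A14 was listed at 0 in every library.

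**Figure D3:**
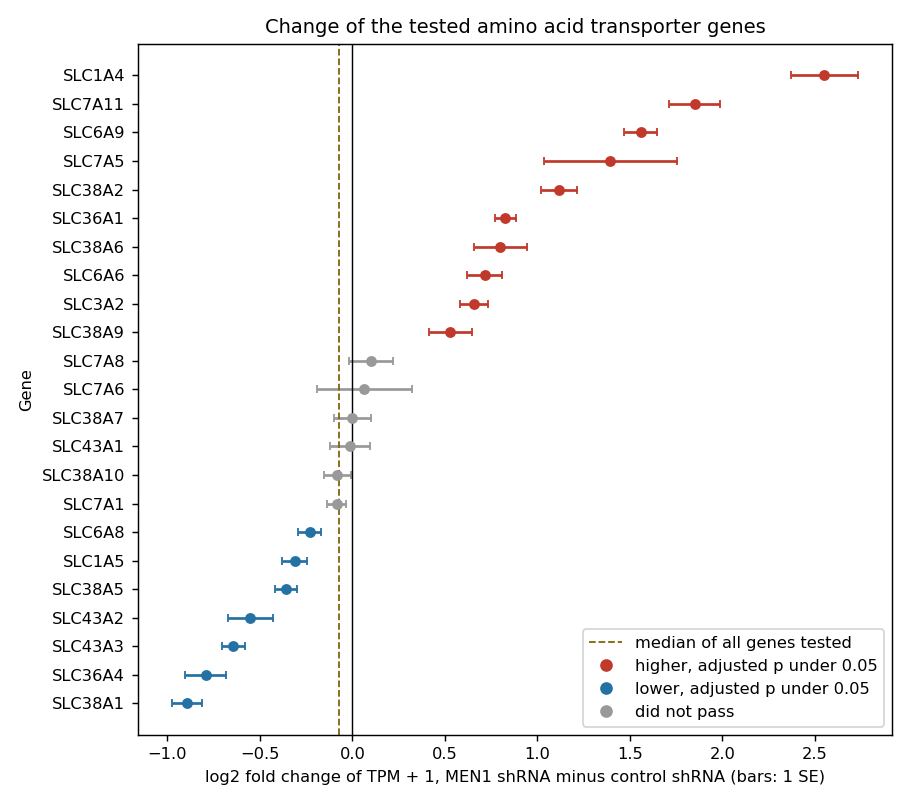
Log2 fold change of TPM + 1 (MEN1 shRNA minus control shRNA) of the 23 tested genes, with bars of 1 SE. Red points are the 10 genes higher and blue points the 7 lower at an adjusted p under 0.05; the dashed line is the median of all tested genes, -0.07. The rises run from 0.53 to 2.55 and the falls from -0.23 to -0.89.

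SLC36A1 couples the movement of small amino acids to protons, while SLC36A4 carries proline and tryptophan without proton coupling. SLC36A1, which exports amino acids from the lysosome and takes part in signalling to mTORC1 (ENSG00000123643, chromosome 5, 151437046 to 151492379, plus strand), was at 92.3, 97.6 and 98.8 TPM in the knockdown and 52.5, 54.4 and 54.6 TPM in the controls. The libraries of each group were tightly grouped (log2 change 0.83 with SE 0.0569, adjusted p 4.12e-05). SLC36A4 moved the other way, at 2.61, 2.99 and 2.73 TPM against 5.47, 5.30 and 5.85 TPM, or 50.1% of the control level (log2 change -0.79 with SE 0.112, adjusted p 0.000749). At these low levels the log2 of TPM + 1 understates the change. SLC36A1 transcripts outnumbered those of SLC36A4 by 34.8 ± 1.86 to 1 in the knockdown and by 9.73 ± 0.481 to 1 in the controls. A promoter of SLC36A1 holds the E-box letters at 2 places, more than any promoter of the other tested carriers that have a sequence (20 of the 23 have one), and is shown for that reason from chr5:151447534-151447626 (plus strand), with the E-boxes in capitals.
SLC36A1: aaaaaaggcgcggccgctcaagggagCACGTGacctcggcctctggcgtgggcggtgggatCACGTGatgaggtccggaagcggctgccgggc

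The SLC38 family carries glutamine and other neutral amino acids. SLC38A2 (SNAT2), the system A carrier that cells raise when amino acids are scarce, was at 140, 173 and 172 TPM in the knockdown and 69.1, 74.0 and 78.6 TPM in the controls (ENSG00000134294, chromosome 12, 46358188 to 46372773). SLC38A1 (SNAT1), its close relative, was at 18.7, 16.1 and 16.4 TPM against 32.2, 33.1 and 32.1 TPM (ENSG00000111371, chromosome 12, 46183063 to 46270017). The 2 genes moved in opposite directions with no overlap between groups in either. SLC38A2 rose with a log2 change of 1.12 (SE 0.0961, adjusted p 8.83e-05), and SLC38A1 fell with one of -0.89 (SE 0.0798, adjusted p 9.99e-05). They are neighbours on the minus strand, 88.2 kilobases apart with no other gene of the tables lying wholly between them. The ratio of SLC38A2 to SLC38A1 was 7.49, 10.8 and 10.5 in the knockdown and 2.14, 2.23 and 2.45 in the controls.

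A promoter of SLC38A1, the carrier that fell, holds a TGATGNAA match, and so does that of SLC7A1, which did not pass the threshold; they are shown as a counterpart to SLC1A4 and SLC3A2. SLC38A1 lies at chr12:46266487-46266546 and SLC7A1 at chr13:29595648-29595707, both on the minus strand, with the match in capitals.
SLC38A1: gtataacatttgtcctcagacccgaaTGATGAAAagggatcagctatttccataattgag
SLC7A1: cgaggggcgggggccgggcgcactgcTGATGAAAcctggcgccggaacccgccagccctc

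SLC38A5 (SNAT5), a system N carrier of glutamine, histidine and asparagine, was the most abundant of its family. It fell from 230 ± 12.6 to 179 ± 3.92 TPM (178, 176 and 184 against 220, 227 and 244 TPM; log2 change -0.36 with SE 0.0581, adjusted p 0.00145), while its relative SLC38A3 reached at most 0.0541 TPM. SLC38A9, the lysosomal arginine sensor of mTORC1, was at 18.4, 22.3 and 18.5 TPM against 12.1, 15.3 and 12.8 TPM (log2 change 0.53 with SE 0.117, adjusted p 0.00641). With gene-level coverage in place of TPM its log2 change was 0.27 and did not pass (adjusted p 0.0719), and it was covered by as few as 3.75 reads per base. SLC38A6, whose substrates are less well known, was at 13.8, 12.1 and 17.8 TPM against 7.42, 7.51 and 8.71 TPM (log2 change 0.80 with SE 0.144, adjusted p 0.00247). TRMT5 overlaps SLC38A6 on the opposite strand at a higher level (17.7 against 21.6 TPM), SLC38A6 coverage was as low as 1.95 reads per base, and its log2 change was 0.50 with gene-level coverage in place of TPM. SLC38A7, a lysosomal glutamine carrier, had the same mean in both groups (17.2 ± 2.13 and 17.2 ± 0.334 TPM, log2 change -0.0005 with SE 0.101, adjusted p 0.997). SLC38A10 was at 31.0 ± 0.855 against 32.9 ± 2.37 TPM (log2 change -0.08 with SE 0.0741, adjusted p 0.384). The signs of these last 2 differences changed with the scaling.

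None of the 3 SLC43 genes was higher. SLC43A3, classed with amino acid carriers by sequence but known to carry purine nucleobases, was at 262, 229 and 245 TPM against 384, 390 and 376 TPM and fell to 64.0% of the control level (log2 change -0.64 with SE 0.0618, adjusted p 0.000134; ENSG00000134802, chromosome 11, 57406954 to 57427580). SLC43A2 (LAT4), a facilitated carrier of branched-chain amino acids, methionine and phenylalanine, was at 6.57, 6.24 and 5.20 TPM against 8.88, 8.52 and 10.4 TPM (log2 change -0.55 with SE 0.122, adjusted p 0.00654). SLC43A1 (LAT3), with like substrates, was at 68.8, 76.4 and 82.8 TPM against 81.8, 83.2 and 65.7 TPM, with wide overlap (log2 change -0.01 with SE 0.109, adjusted p 0.930) and a sign that changed with the scaling. SLC43A3 and SLC43A1 lie 57.0 kilobases apart on chromosome 11.

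Across the carriers, promoter sequences were at hand for 26 of the 34 genes (47 promoters, among 35116 in all). The tested carriers SLC7A11, SLC6A6 and SLC43A3 had none, so they were not searched. TGATGNAA was found in 6 of the 47 (12.8%) and in 3.62% of all promoters. Of the 5 tested carriers that hold it, SLC1A4 and SLC3A2 rose, SLC1A5 and SLC38A1 fell, and SLC7A1 did not pass the threshold. CACGTG was in 8 of the 47 (17%) and in 7.26% of all, and TGACNNNGC in 7 (14.9%) and in 13.3% of all. Of the 7 tested carriers with CACGTG, SLC36A1 and SLC7A5 rose, SLC1A5 and SLC38A5 fell, and SLC43A1, SLC7A8 and SLC38A7 did not pass. Of the 5 with TGACNNNGC, SLC3A2 and SLC7A5 rose, SLC1A5 fell, and SLC7A1 and SLC7A6 did not pass. A gene can have several promoters, so they are not independent, and a match of letters is a description.

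Knockdown replicate 1 often lay nearest to the controls. This was so for 14 of the 18 carriers whose groups did not overlap, and for 2 each in replicates 2 and 3. The same count was not made over all tested genes, so it is not shown to be particular to the carriers. Among all tested genes, 7542 passed the threshold without knockdown replicate 1, 6577 without replicate 2 and 6686 without replicate 3. The 5 tested carriers with under 5 reads per base in some library (SLC1A4, SLC36A4, SLC38A6, SLC38A9 and SLC43A2) all passed the threshold.

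Other genes of amino acid transport and use were compared through 4 lists. Of 23 other amino acid carriers, 5 were tested, 3 higher and 2 lower, against 22.1% and 31.5% of all tested genes. The higher ones were SLC6A19, the neutral amino acid carrier of gut and kidney (19.5 ± 0.693 to 41.6 ± 3.05 TPM, log2 change 1.06, adjusted p 5.22e-05), SLC66A1, which exports cationic amino acids from the lysosome (14.6 ± 0.558 to 30.7 ± 4.32 TPM, 1.02, adjusted p 0.000226), and CTNS, the lysosomal cystine exporter (9.70 ± 1.41 to 19.0 ± 3.11 TPM, 0.90, adjusted p 0.00137). The lower ones, SLC15A4 (-0.43, adjusted p 0.0485) and MFSD12 (-0.24, adjusted p 0.0217), also act at lysosome-related membranes and were named after their values were seen.

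Of 35 genes of amino acid sensing for mTORC1, a list that includes MTOR itself, all were tested. Of these, 12 were higher and 12 lower, with a median log2 change of 0.01, while over all tested genes 22.1% were higher and 31.5% lower. The list was not split by whether a gene promotes or restrains mTORC1, so its counts and median do not describe mTORC1 activity. SESN2, the leucine sensor, rose from 4.4 ± 0.211 to 17.2 ± 3.11 TPM (log2 change 1.74, adjusted p 6.72e-05), SESN3, its relative, from 10.7 ± 0.639 to 24.0 ± 1.71 TPM (1.10, adjusted p 6.89e-05), and RRAGC, a Rag GTPase that recruits mTORC1 to the lysosome, from 24.7 ± 1.20 to 50.0 ± 4.26 TPM (0.98, adjusted p 8.18e-05). These 3 have the lowest adjusted p of the list and all rose. Among the lower genes, named after their values were seen, CASTOR1, an arginine sensor, fell to 33.8% of the control level (adjusted p 0.000149) and SEH1L, a subunit of the GATOR2 complex, to 54.1% (adjusted p 0.000128).

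Of 17 genes of the response to amino acid shortage, 15 were tested, 10 higher and 1 lower, against 22.1% and 31.5% of all tested genes. The median log2 change of the list was 0.59, against -0.07 for all tested genes. EIF2AK1, counted in this list though it is the heme-regulated kinase of the translation factor eIF2, rose from 181 ± 3.97 to 312 ± 12.3 TPM (log2 change 0.78, adjusted p 3.93e-05). ASNS, asparagine synthetase, rose from 100 ± 5.03 to 151 ± 10.5 TPM (0.59, adjusted p 0.00035), and ATF4, the transcription factor at the centre of this response, from 487 ± 24.4 to 687 ± 46.1 TPM (0.50, adjusted p 0.000688). The lower gene, named after its value was seen, was EIF2AK4, the eIF2 kinase that senses uncharged tRNA (32.9 ± 1.24 to 23.4 ± 1.19 TPM, -0.48, adjusted p 0.001). Of 28 genes of amino acid synthesis and breakdown, 27 were tested, 6 higher and 16 lower, against the same 22.1% and 31.5% of all tested genes. Their median log2 change was -0.51. BCAT2, the mitochondrial branched-chain aminotransferase, fell from 88.5 ± 3.86 to 29.2 ± 6.23 TPM (-1.59, adjusted p 8.42e-05), ASL, argininosuccinate lyase, from 46.9 ± 1.42 to 21.7 ± 1.93 TPM (-1.08, adjusted p 5.38e-05), and GOT2, the mitochondrial aspartate aminotransferase, from 201 ± 4.09 to 106 ± 11.7 TPM (-0.93, adjusted p 9.59e-05).

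**Figure D4:**
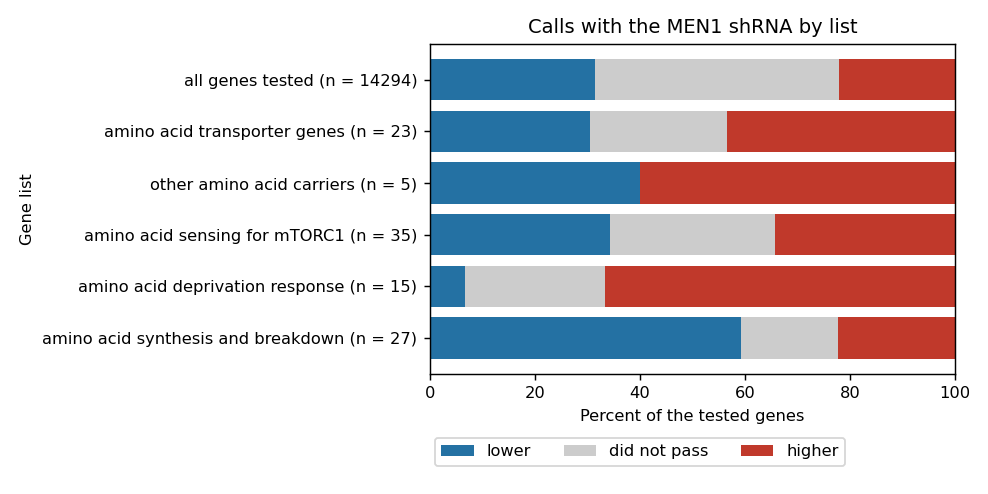
Percent of the tested genes of each list that were lower (blue), higher (red) or did not pass the threshold (grey) with the MEN1 shRNA, beside all 14294 tested genes. Among the carriers 10 of 23 were higher and 7 lower, and the list of synthesis and breakdown has the most lower genes, 16 of 27.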

How the data were processed

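Poly(A) RNA was made into directional libraries, per the labels' protocols. The submitters' processing notes name FastQC, Trimmomatic, STAR 2.7.1a, Picard 2.20.4 and StringTie 2.0.4 and the build hg38; their roles, the annotation and any use of strand in quantification are, for the sources used here, not given. The deposited TPM values are normalized to a fixed total per library, the deposited FPKM values to transcript length and library size, per their usual definitions, and the deposited coverage signal, so named in the file headers, was read as mean depth per exonic base. In 1 library a negative residue close to 0 in 2 genes was set to 0. No counts were used. Depth was inferred from coverage over FPKM in single-transcript genes, with 302 bases per read pair. Of 58261 gene identifiers shared with GENCODE 29 (GRCh38), 99.9% overlap their position there.

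Genes that reached 1 TPM in 3 or more of the 6 libraries were fitted as log2(TPM + 1) with limma 3.58.1 in R 4.3.3 (lmFit, eBayes with trend), MEN1 shRNA minus control shRNA. The test was 2-sided, p-values were adjusted by Benjamini-Hochberg across the 14294 genes, and 0.05 was the threshold. The step was run on simulated data with far fewer changed genes than were called here, so its error rate in these data was not tested. SDs are of TPM. Promoters are RefSeq's on GRCh38.p14. Named were MEN1, the 34 carriers and, from each of 4 lists, up to 3 called genes without overlap between groups, taken by lowest adjusted p. The carriers and lists were chosen with earlier results of these data known. Genes named beyond this rule, including markers, were chosen after their values were seen. Alternatives varied the pseudocount, filter, unit, scaling, variance model, replicate block, threshold and libraries used; only gene-level coverage was added after seeing the data. Python 3.11.15, pandas 2.3.3, NumPy 2.4.6 and matplotlib 3.10.9 made the summaries and figures.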

Additional observations from a re-analysis of the deposited data

How the results depend on the processing

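In all 90 comparisons of the gene counts with an alternative, the count stayed within 1.5 times: 15 to 17 carriers past the threshold, 9 to 10 higher, 6 to 8 lower, 4 to 6 with a log2 change of 1 or more, and 5527 to 7674 genes in all. For the 23 tested carriers, 364 of 390 comparisons changed neither the sign nor the call. The changes of call concern SLC7A5, SLC6A8, SLC38A9 and SLC7A1 and are given above; the cause was not tested. The sign turned in 5 carriers, none past the threshold in any of these settings. With FPKM, median-of-ratios scaling, TPM without globin and mitochondrial genes, and quantile normalization, SLC38A7 was at 0.029, 0.051, 0.063 and 0.13 and SLC43A1 at 0.018, 0.041, 0.053 and 0.064 on the log2 scale; SLC38A10 was at 0.0125 with quantile normalization, and SLC7A8 at -0.15 with gene-level coverage. With 1 library left out, SLC7A6 ran from -0.16 to 0.38, SLC7A8 from -0.011 to 0.17, SLC38A7 from -0.071 to 0.097 and SLC43A1 from -0.12 to 0.055. The median of the 23 was -0.03 with gene-level coverage and 0.16 with quantile normalization. Same-numbered libraries did not deviate together (correlations 0.017, -0.027 and -0.012). With the replicate number as a replicate block, 17 carriers and 7012 genes in all passed the threshold. The tables used hold no counts, so counting error was not computed, and carriers with little coverage are the least precise.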
